A study of Mus musculus with 6 samples.

Results

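The 40 genes described here encode proteins of the kinetochore, the spindle assembly checkpoint and the mitotic spindle, together with kinesin motors of mitosis. They were chosen by symbol, and all 40 were found once each among the 27998 genes of the count tables. Their levels were measured by droplet-based scRNA-seq of left ventricular cardiomyocytes (CMs) of C57BL/6J mice at embryonic day 16.5 (E16.5), postnatal day 1 (P1) and postnatal day 5 (P5). At each age, methanol-fixed cells that stained for the muscle protein MYH1 were sorted with Hoechst, a DNA dye, into diploid (2n) and tetraploid (4n) CMs, which gave 6 conditions, named by age and ploidy (P5-4n, for example). Values of the 6 libraries are listed below in order of age, each time with 2n before 4n. The mice carried no altered gene and received no agent. Cells of 3 sorts were pooled into 1 library per condition. With 1 library per condition no test between conditions was possible, and every interval below covers counting error only. A 4n gate holds CMs that have replicated their DNA before division, binucleated CMs and CMs with a tetraploid nucleus, which DNA content cannot tell apart. It can also hold doublets, in which a diploid CM is caught together with another diploid cell. The study reported cell clumps to be scarce after sorting, in a passage on sorted P5 CMs. The part of doublets in the differences between 4n and 2n below was not tested.

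The kinetochore is the protein assembly that attaches a chromosome to the spindle. It is built on nucleosomes that carry the histone variant CENP-A, with an inner layer that stays on the centromere and an outer layer that binds microtubules during mitosis. Kinetochores without attachment keep the checkpoint active, which restrains CDC20, the activator of the anaphase-promoting complex, until all chromosomes are attached. Most of these genes are transcribed in late S and G2 phase and their products are removed after mitosis, and cardiomyocytes lose the ability to divide soon after birth, when many replicate DNA and become binucleated or polyploid.

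Many genes of this class share short promoter motifs, the cell cycle genes homology region (CHR, TTTGAA) and the CCAAT box (CCAAT), which are bound by the DREAM and MuvB complexes and by NF-Y. RefSeq promoter windows of GRCm38.p6, from 250 bases before to 50 bases after a transcription start, were given for 36 of the 40 genes in 39 windows. Both motifs were searched on both strands. Matches of the motifs can share a base, as they do in the window of Cenpw. TTTGAA was present in 22 of the 39 windows (56.4%), against 17.9% of all 32851 windows of the same length. CCAAT was present in 28 windows (71.8%), against 37.4% of all windows. Both were present in 18 windows (46.2%), against 6.95%. Of the 22 windows with TTTGAA, 12 held it only at or after the start. Counting only matches before the start, TTTGAA was in 25.6% of the windows of these genes against 16% of all windows, CCAAT in 69.2% against 33.8%, and both in 17.9% against 5.55%. The 120 bases before the start are shown for 6 genes, with both motifs in capitals on either strand (TTCAAA and ATTGG are the same motifs read on the other strand). They were chosen to set large and small ratios side by side. Cdc20, Kif11 and Kif22 hold both motifs and had large ratios of 4n over 2n at E16.5. Bub3 also holds both and had one of the smallest ratios. Cenpq holds only CCAAT and had the smallest ratio at E16.5, and Knstrn holds neither and had the largest ratio at P5.
Cdc20 (chr4:118437344-118437463, minus strand): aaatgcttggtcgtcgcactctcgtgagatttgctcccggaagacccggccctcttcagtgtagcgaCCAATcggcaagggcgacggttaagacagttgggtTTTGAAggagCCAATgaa
Kif11 (chr19:37376262-37376381, plus strand): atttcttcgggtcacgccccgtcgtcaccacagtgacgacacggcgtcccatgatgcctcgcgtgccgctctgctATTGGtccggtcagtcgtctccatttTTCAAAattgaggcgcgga
Kif22 (chr7:127042421-127042540, minus strand): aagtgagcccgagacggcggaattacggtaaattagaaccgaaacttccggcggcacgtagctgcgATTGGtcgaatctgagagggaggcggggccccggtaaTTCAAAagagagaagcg
Bub3 (chr7:131560250-131560369, plus strand): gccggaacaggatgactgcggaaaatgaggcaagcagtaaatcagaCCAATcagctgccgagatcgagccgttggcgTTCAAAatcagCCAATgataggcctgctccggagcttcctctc
Cenpq (chr17:40934575-40934694, minus strand): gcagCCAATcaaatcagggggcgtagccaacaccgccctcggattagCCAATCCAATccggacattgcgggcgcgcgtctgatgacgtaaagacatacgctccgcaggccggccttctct
Knstrn (chr2:118813883-118814002, plus strand): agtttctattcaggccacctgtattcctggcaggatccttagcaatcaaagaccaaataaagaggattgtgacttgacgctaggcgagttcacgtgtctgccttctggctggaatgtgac
The 21 genes with TTTGAA anywhere in a window had a median log2 ratio of 4n over 2n of 2.08 at E16.5 (range 0.93 to 2.67), and the 15 genes with a window but without it had 1.70 (0.38 to 2.85). The ranges overlapped. A match is a run of letters and not a measured binding site.

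A cell was taken as a CM when it held at least 1 unique molecular identifier (UMI), the tag of 1 captured RNA molecule, of each of Tnni3, Tnnt2, Actc1 and Tnnc1. This kept 30733 of 31156 cells, between 3654 and 7340 per library, with 13070343 to 19665830 UMIs per library and medians of 1831 (P1-2n) to 4658 (P5-4n) UMIs per CM. The UMIs of all CMs of a library were added up and are given as CPM, the UMIs of a gene per 1000000 UMIs of these cells. Most markers of other cell types were higher in 4n at E16.5 and P1, and less so or not at P5. CMs with at least 3 UMIs of 30 fibroblast, endothelial, immune, mural and epicardial markers made up 2.63%, 2.68% and 6.32% of the 2n libraries of E16.5, P1 and P5, and 21.9%, 34.0% and 13.4% of the 4n libraries. All 30 markers had UMIs in every library except Ptprc and Upk1b, both at 0 in E16.5-2n. All 7 fibroblast and all 7 endothelial markers were at least 2-fold higher in 4n at E16.5 and at P1, whereas at P5 no marker of any of these lists was. Of the markers with at least 50 UMIs over both libraries, 5 of 6 immune and 4 of 5 mural ones were so at each of E16.5 and P1. The lowest immune and mural markers at E16.5 had log2 ratios of -0.28 and -0.04. The summed level of the 7 fibroblast markers was 127, 132 and 245 CPM in 2n and 757, 894 and 337 CPM in 4n CMs at the 3 ages. At P5 the endothelial markers summed to 67.1 CPM in 2n and 70.7 in 4n, and the immune markers to 13.6 in 2n and 11.2 in 4n. The 5 erythroid markers summed to 5125 CPM in the 2n and 10327 CPM in the 4n library of E16.5, to 1895 (2n) and 2905 CPM (4n) at P1, and in the opposite order of ploidy to 2241 (2n) and 1648 CPM (4n) at P5. Pairs of libraries shared at most 62 cell barcodes, and 499 of 30652 distinct barcodes occurred in more than 1 library.

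The summed level of the 40 genes was 1092 CPM (2n) and 3665 CPM (4n) at E16.5, 289.8 and 704 CPM at P1, and 564 CPM (2n) and 2120 CPM (4n) at P5. The genes were thus highest before birth, lowest on the day after birth and partly restored at P5, and at each age they were higher in 4n than in 2n CMs. This order held gene by gene. All 40 genes were highest in CPM in E16.5-4n, as were 4937 (40%) of 12353 genes with at least 50 UMIs in all, and all 40 were lowest in P1-2n, as were 20.5%. All 40 were higher in 4n than in 2n at each of the 3 ages, against 27.0% of all genes, and all 40 were lower at P1 than at both other ages in both ploidies, against 15.2%. Once ratios were centred on the median gene, as described next, 7 of the 40 (Cenpa, Cenpm, Cenpw, Ska2, Knstrn, Nek2 and Kif4) lay above their E16.5-4n level in P5-4n, whereas the order of the ploidies and the low at P1 held for all genes with enough UMIs. Only 5 of these 7 had an interval of counting error above 0. Centring itself puts the median of all genes at 0.

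**Figure D1:**
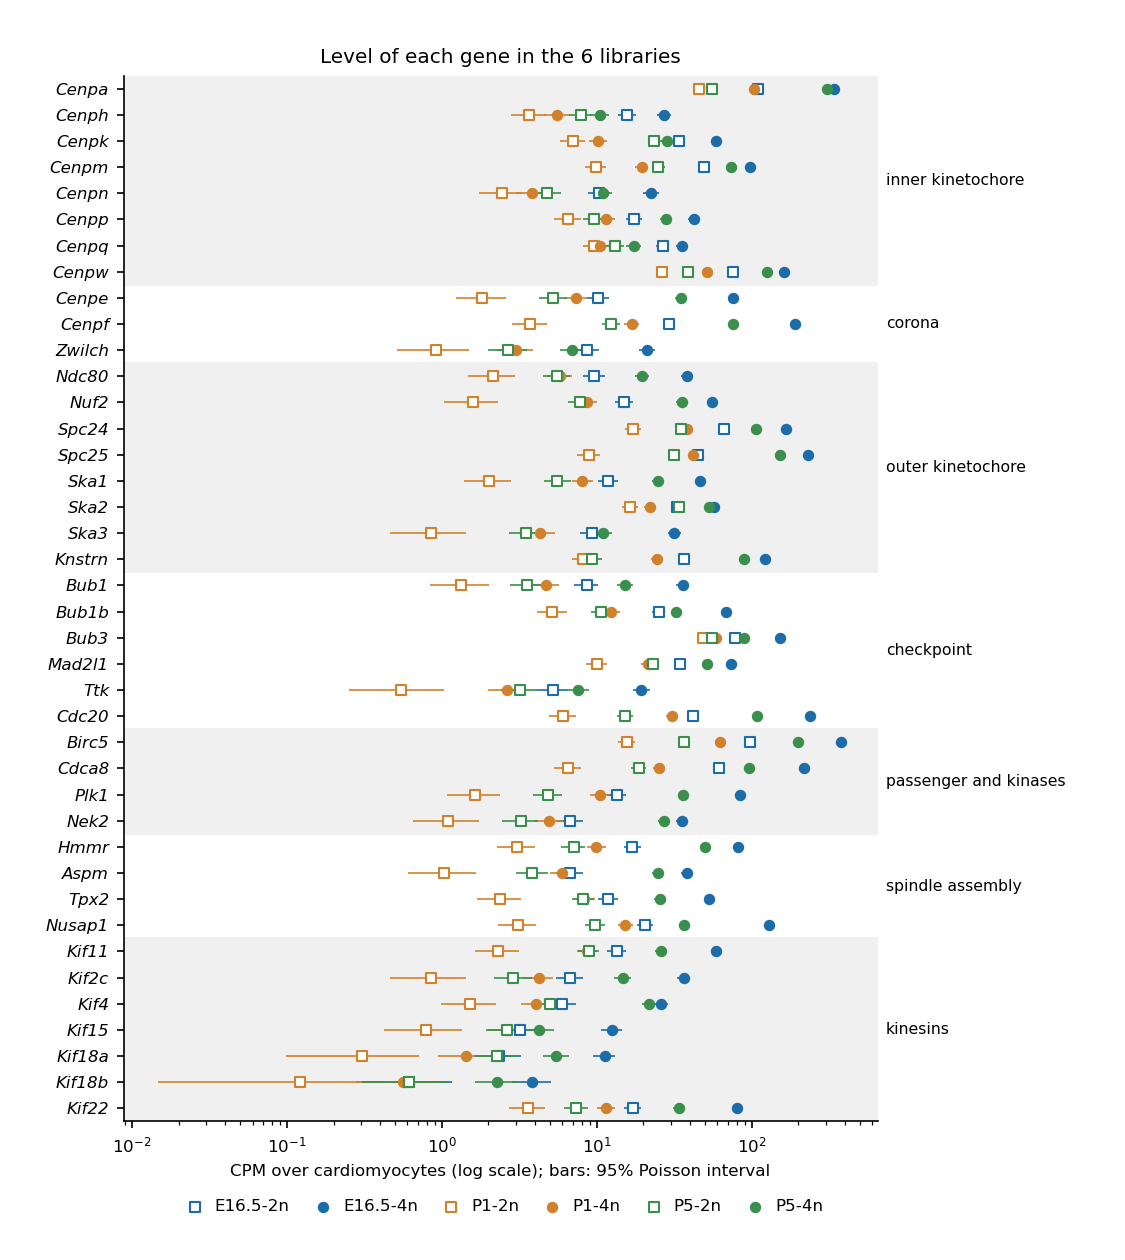
CPM over CMs (x axis, log scale) of each of the 40 genes (y axis, grouped by role) in the 6 libraries, with filled circles for 4n, open squares for 2n, colours for age and bars for the 95% Poisson interval of counting error. For all 40 genes the rightmost point is E16.5-4n and the leftmost is P1-2n.

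For each comparison, genes with at least 50 UMIs over both libraries were compared by the log2 ratio of CPM, centred on the median ratio of all those genes, and a gene is called higher or lower at a ratio of at least 2-fold. The median ratio removed by centring lay between 0.02 and 0.06 for the 3 comparisons of ploidy, but was -0.35 and -0.30 for P1 over E16.5 in 2n and 4n, -0.09 and -0.17 for P5 over P1, and -0.45 and -0.52 for P5 over E16.5. Ranges in parentheses after a ratio are the exact 95% interval of the split of the UMIs between both libraries.

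The first comparison was between tetraploid and diploid CMs at each age. At E16.5, 34 of the 40 genes were at least 2-fold higher in 4n than in 2n and 0 were lower, while of 10768 genes compared 5.62% were called higher and 0.223% lower. The median of the 40 genes was 1.91 on the log2 scale. At P1, 29 of the 38 genes with enough UMIs were higher and 0 lower (6.99% and 0.0184% of 10864 genes), with a median of 1.67. Several of these genes reached the minimum of 50 UMIs at P1 only through 4n, which nearly fixed their calls in advance. They include, in UMIs of 2n and 4n, Ttk (9 and 52), Kif15 (13 and 52), Kif2c (14 and 83) and Ska3 (14 and 85). Zwilch (15 and 59), Aspm (17 and 118) and Nek2 (18 and 97) are further cases. At P5, 34 of 40 were higher and 0 lower (1.92% and 0.587% of 10563 genes), with a median of 1.84. Without the CMs that held markers of other cell types, 35 of 39, 30 of 36 and 33 of 39 genes were higher at E16.5, P1 and P5. Without the CMs that held Alas2, a marker of red blood cell precursors, the numbers were 34, 29 and 34. This filter left out only 0.613% (P1-2n) to 2.99% (E16.5-4n) of CMs, so it could change little. The share of all genes called higher under these filters is not given here to set beside these counts.

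Genes of DNA replication did not share this difference. Of a list of 36 replication genes, such as those of the MCM helicase and the GINS complex, 0 were called higher in 4n at any age. At E16.5, 1 of 35 was lower and the median was -0.01, at P1 0 of 33 were lower with a median of -0.00, and at P5 11 of 35 were lower with a median of -0.74. Of 38 other genes of the kinetochore, checkpoint and spindle, 25 of 38 were higher at E16.5, 17 of 35 at P1 and 23 of 38 at P5, with medians of 1.38, 0.93 and 1.15. Aurka, a kinase of spindle poles, had the highest ratio among them at E16.5 (2.77, 2.56 to 2.99) and at P5 (2.52, 2.27 to 2.78), while Pttg1, the inhibitor of the protease separase, had the lowest at E16.5 (-0.15, -0.26 to -0.04). Of 14 genes of cytokinesis, 11 of 14 were higher at E16.5, 11 of 13 at P1 and 10 of 14 at P5.

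**Figure D2:**
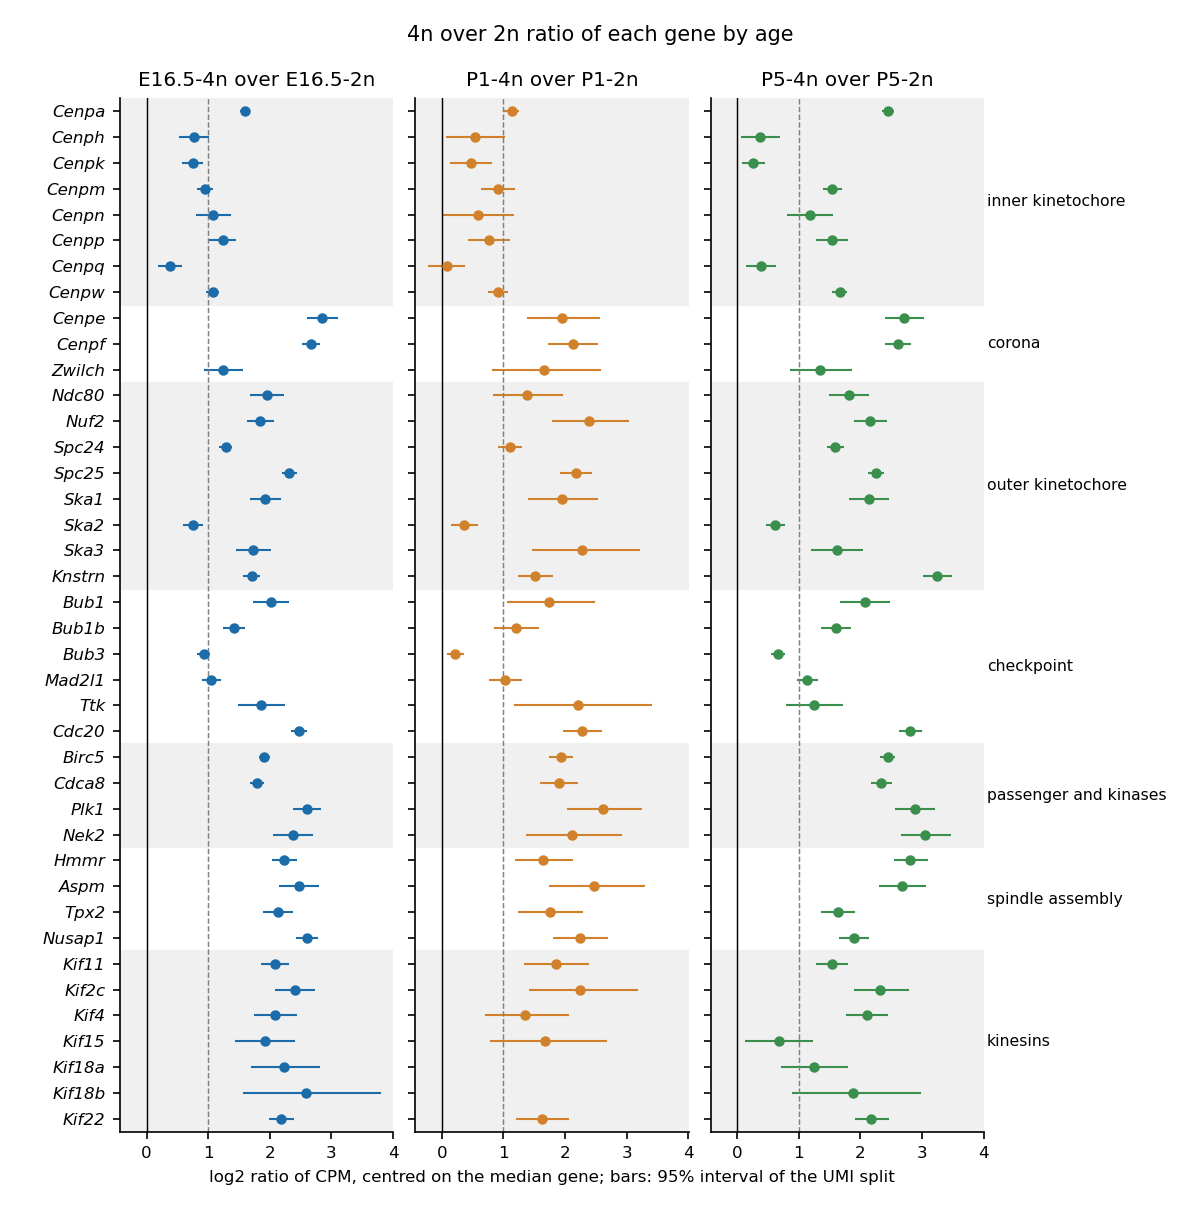
Log2 ratio of CPM in 4n over 2n CMs at E16.5, P1 and P5 (x axis, centred on the median gene) for each gene with at least 50 UMIs over both libraries (y axis, grouped by role), with bars for the exact 95% interval of the UMI split and a dashed line at 2-fold. Cenph, Cenpk, Cenpq, Ska2 and Bub3 lie below 2-fold at each age, and Plk1 and Cdc20 are among the genes above a log2 ratio of 2 at each age.

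Genes of the inner kinetochore had the smallest median ratio of the 7 roles at each age. The median of the 8 genes was 1.01 at E16.5, 0.67 at P1 and 1.36 at P5, and 4, 1 and 5 of them were called higher. Cenpa (ENSMUSG00000029177, chromosome 5), which encodes the centromeric histone, had 109 CPM (2n) and 341 CPM (4n) at E16.5, 45.4 and 104 CPM at P1, and 55.3 CPM (2n) and 306 CPM (4n) at P5. It was above 2-fold at each age, with ratios of 1.60 (1.52 to 1.68), 1.13 (1.01 to 1.26) and 2.45 (2.35 to 2.55). Cenpw, a histone-fold subunit of the constitutive centromere network, had 75.5, 163, 26.5, 51.8, 39.0 and 125 CPM in the 6 libraries. Its ratio was 1.07 at E16.5, 0.91 at P1 and 1.66 at P5, the largest of the group at P5 after Cenpa. Cenpk, Cenph and Cenpq, subunits of the same network, had small ratios at all 3 ages. Cenph had 15.7, 3.65 and 7.92 CPM in 2n and 27.3, 5.54 and 10.4 CPM in 4n CMs at the 3 ages. Cenpk had 34.0, 7.05 and 23.5 CPM in 2n and 58.6, 10.2 and 28.6 CPM in 4n CMs at the 3 ages, and its ratio at P5 was 0.26 (0.07 to 0.45). Cenpq had 26.7, 9.61 and 13.2 CPM in 2n and 35.7, 10.6 and 17.4 CPM in 4n CMs at the 3 ages. Its ratio at P1 was 0.08 (-0.23 to 0.38). It was the only ratio of 4n over 2n whose interval held 0 among the 39 genes with at least 200 UMIs in all. Cenpm, Cenpn and Cenpp lay between these extremes, with ratios of 0.95, 1.08 and 1.24 at E16.5, then 1.54, 1.18 and 1.54 at P5.

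The corona, the outermost fibrous layer of unattached kinetochores, held the genes with the largest ratios at E16.5. Cenpe (ENSMUSG00000045328, chromosome 3), a kinesin that carries chromosomes to the spindle equator, had 10.2, 75.5, 1.82, 7.37, 5.24 and 34.8 CPM in the 6 libraries. Its ratio of 4n over 2n was 2.85 (2.60 to 3.11) at E16.5, 1.95 (1.38 to 2.57) at P1 and 2.71 (2.40 to 3.04) at P5. Cenpf, a large coiled-coil protein, had 29.3, 191, 3.71, 16.9, 12.4 and 76.4 CPM, and ratios of 2.67, 2.12 and 2.61. Zwilch, a subunit of the complex that recruits dynein, had lower ratios of 1.25, 1.65 and 1.35. It had 8.68, 0.912 and 2.68 CPM in 2n and 21.2, 3.0 and 6.90 CPM in 4n CMs at the 3 ages, so that its level at P5 stayed furthest below that at E16.5 among the 3 genes.

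Among the 8 genes of the outer kinetochore, all but Ska2 were called higher in 4n at each age. The subunits of the NDC80 complex, which grips the microtubule, differed in size of ratio although they form 1 complex. Spc25 had 45.2, 232, 8.88, 41.8, 31.5 and 152 CPM in the order above, with ratios of 2.32 (2.20 to 2.44), 2.17 (1.92 to 2.44) and 2.25 (2.12 to 2.38). Its partner Spc24 had 66.8, 167, 17.1, 38.4, 35.1 and 108 CPM, with ratios of 1.28 (1.17 to 1.39), 1.10 (0.91 to 1.31) and 1.59 (1.46 to 1.73), below those of Spc25 at each age with no overlap of the intervals. Ndc80 had ratios of 1.95, 1.38 and 1.81, and Nuf2 had 1.84, 2.39 and 2.16. In the SKA complex, which strengthens the attachment, Ska1 and Ska3 were alike at E16.5 (1.93 and 1.73), but Ska2 had only 0.75 (0.58 to 0.92), then 0.37 at P1 and 0.62 at P5. Ska2 had 32.9, 16.4 and 34.1 CPM in 2n and 56.9, 22.1 and 53.2 CPM in 4n CMs at the 3 ages, and its levels therefore varied least of the group across ages. Knstrn (ENSMUSG00000027331, chromosome 2), which encodes the small kinetochore-associated protein of the spindle and kinetochore, had 36.5, 122, 8.21, 24.6, 9.32 and 89.8 CPM. Its ratio was 1.70 (1.56 to 1.85) at E16.5, 1.52 (1.24 to 1.80) at P1 and 3.25 (3.02 to 3.49) at P5, the largest of the 40 genes at that age.

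Of the checkpoint genes and their target, Cdc20 had the largest ratios and Bub3 the smallest. Cdc20 (ENSMUSG00000006398, chromosome 4) had 41.6 CPM (2n) and 237 CPM (4n) at E16.5, 6.02 and 30.5 CPM at P1, and 15.3 CPM (2n) and 109 CPM (4n) at P5. The ratios were 2.47 (2.35 to 2.60), 2.28 (1.97 to 2.60) and 2.81 (2.63 to 3.0). Bub3, a WD-repeat protein that brings the kinases BUB1 and BUBR1 to kinetochores, had 78.0, 153, 48.2, 58.6, 55.2 and 88.7 CPM, and ratios of 0.93 (0.82 to 1.04), 0.22 (0.09 to 0.35) and 0.66 (0.55 to 0.78). Its interval lay below those of Cdc20, Bub1, Bub1b and Ttk at each age. Mad2l1, which encodes the inhibitor MAD2, had 34.7, 9.97 and 23.0 CPM in 2n and 73.9, 21.3 and 51.2 CPM in 4n CMs at the 3 ages, close to 2-fold at each age (1.05, 1.03 and 1.13). Bub1 had ratios of 2.02, 1.74 and 2.07, Bub1b of 1.41, 1.21 and 1.60, and Ttk, the MPS1 kinase, of 1.86, 2.21 and 1.24.

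The chromosomal passenger subunits and mitotic kinases were all called higher in 4n at each age. Birc5 (ENSMUSG00000017716, chromosome 11), which encodes survivin, had 98.1, 379.7, 15.6, 62.2, 36.4 and 201 CPM, with ratios of 1.91, 1.93 and 2.44. Cdca8, which encodes borealin, its partner in the passenger complex, had 61.5, 219, 6.51, 25.3, 18.7 and 95.5 CPM, and nearly the same ratios of 1.79, 1.90 and 2.34. Plk1 (ENSMUSG00000030867, chromosome 7), the polo kinase of mitotic entry, had 13.5, 84.1, 1.64, 10.5, 4.85 and 36.2 CPM. Its ratios of 2.60 (2.38 to 2.83), 2.61 (2.03 to 3.25) and 2.88 (2.56 to 3.22) varied little with age. Nek2, a kinase that splits centrosomes, had 6.70, 35.7, 1.09, 4.93, 3.24 and 27.1 CPM and ratios of 2.37, 2.11 and 3.05.

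The 4 spindle assembly genes had a median ratio of 2.35 at E16.5, 2.00 at P1 and 2.28 at P5, and all 4 were called higher each time. Nusap1, which bundles microtubules near chromosomes, had 20.5, 129, 3.10, 15.3, 9.76 and 36.7 CPM in the order above, with ratios of 2.61, 2.24 and 1.89. Hmmr, a protein that organises spindle poles, had 17.0, 82.2, 3.04, 9.97, 7.09 and 50.4 CPM, with ratios of 2.24, 1.65 and 2.81. The order of Nusap1 and Hmmr was thus opposite at E16.5 and P5. Aspm, which focuses the poles, had ratios of 2.47, 2.47 and 2.67, and Tpx2, the activator of Aurora A, of 2.13, 1.75 and 1.63.

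Kinesins with enough UMIs were called higher in 4n at each age, except Kif15 at P5. Kif22, the chromokinesin KID, had 17.2, 80.2, 3.59, 11.5, 7.36 and 33.8 CPM, with ratios of 2.18, 1.62 and 2.18. Kif11, the motor that pushes spindle poles apart, had 13.5, 58.8, 2.31, 8.70, 8.87 and 26.0 CPM, and ratios of 2.08, 1.85 and 1.53. Kif15, which can take over part of the work of Kif11, had 3.21, 12.5, 0.791, 2.64, 2.62 and 4.24 CPM, and ratios of 1.92 (1.44 to 2.42), 1.68 (0.78 to 2.68) and 0.67 (0.13 to 1.23). Kif2c, which depolymerises microtubules at centromeres, had ratios of 2.40, 2.25 and 2.33, and Kif4, a chromokinesin on chromosome X, of 2.08, 1.36 and 2.10. Kif18a, which dampens chromosome movement, had ratios of 2.23 at E16.5 and 1.24 at P5, and only 5 UMIs in P1-2n. Kif18b was the rarest of the 40 genes, with 125 UMIs in all and 0.122 to 3.83 CPM, and it was called higher at E16.5 and P5. It had 9 (2n) and 50 (4n) UMIs at E16.5, and 11 (2n) and 42 (4n) at P5. It thus reached the minimum of 50 UMIs only through its 4n counts, which nearly fixed these calls in advance. It is included in the counts of genes called higher at both ages.

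The second comparison followed the genes over the days around birth. From E16.5 to P1 the genes were lower in both ploidies. In 2n CMs 35 of 38 were called lower and 0 higher (7.45% and 4.50% of 10522 genes), with a median of -1.99, and in 4n CMs all 40 were called lower and 0 higher (7.37% and 5.96% of 11119 genes), with a median of -2.38. The 3 genes that stayed within 2-fold in 2n were Cenpa (-0.92), Ska2 (-0.66) and Bub3 (-0.35, -0.48 to -0.22). At the other end, Ska3 in 2n (-3.10, -4.01 to -2.31) and Cenpf in 4n (-3.20, -3.37 to -3.04) had the lowest ratios. In 2n, Ska3 reached the minimum of UMIs only through E16.5, with 136 UMIs there and 14 at P1. The same held for Ttk (76 and 9), Kif15 (47 and 13), Kif2c (98 and 14) and Zwilch (127 and 15). Aspm (98 and 17) and Nek2 (98 and 18) are further cases. This nearly fixed their calls in advance, and they are included in the 35 genes called lower. Replication genes were lower as well, 29 of 35 in each ploidy, with medians of -1.39 and -1.42.

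From P1 to P5 the genes were higher again. In 2n CMs 32 of 38 were called higher and 0 lower (4.66% and 1.94% of 10441 genes), with a median of 1.53. In 4n CMs 37 of 40 were called higher and 0 lower (3.48% and 5.53% of 10985 genes), with a median of 1.79. In 2n, Knstrn was the gene with the smallest ratio, 0.27 (-0.07 to 0.61), followed by Bub3 (0.28) and Cenpa (0.37), and Ttk had the largest, 2.62 (1.60 to 3.82). Ttk reached the minimum of UMIs in 2n only through P5, with 9 UMIs at P1 and 57 at P5. The same held for Kif15 (13 and 47), Kif2c (14 and 52), Ska3 (14 and 63) and Zwilch (15 and 48). Aspm (17 and 69) and Nek2 (18 and 58) are further cases. This nearly fixed their calls in advance, and they are included in the 32 genes called higher. In 4n, Knstrn was called higher (2.05, 1.90 to 2.20), and Nek2 (2.63) and Kif4 (2.59) had the largest ratios. Of the replication genes, 27 of 35 were higher in 2n and 9 of 35 in 4n, with medians of 1.51 and 0.71. Because the P1 libraries enter both steps, the ratios of both steps are not independent of each other.

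**Figure D3:**
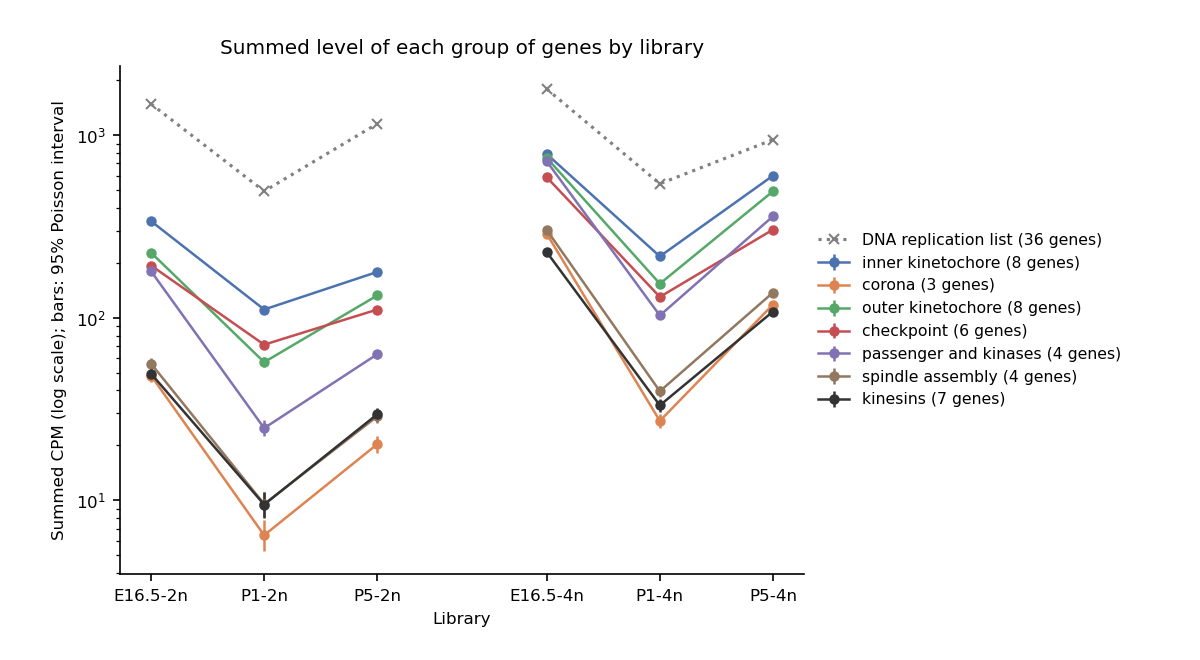
Summed CPM (y axis, log scale) of the genes of each role in the 2n libraries (left) and the 4n libraries (right) ordered by age on the x axis, with bars for the 95% Poisson interval and the list of 36 replication genes as a dotted line. All 7 roles are lowest at P1 and lower in 2n than in 4n at each age, while the replication genes lie at 494 and 542 CPM at P1 and are higher in P5-2n (1155) than in P5-4n (945).

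Between E16.5 and P5 the genes differed much less. In 2n CMs 4 of 39 were called lower and 0 higher (6.47% and 8.04% of 10656 genes). In 4n CMs 4 of 40 were called lower and 0 higher (8.10% and 7.78% of 10789 genes). The share called lower was near that of all genes, whereas the share called higher was below it. The medians were -0.53 and -0.51 after centring, which puts the median of all genes at 0. Lower in 2n were Knstrn (-1.52, -1.78 to -1.26), Cdca8 (-1.26), Zwilch (-1.24) and Plk1 (-1.02). Lower in 4n were Nusap1 (-1.29, -1.42 to -1.16), Zwilch (-1.09), Kif15 (-1.03) and Ska3 (-1.02). Ska2 lay highest in both, at 0.51 (0.33 to 0.68) in 2n and 0.43 (0.29 to 0.57) in 4n, followed in 4n by Cenpa at 0.37 (0.31 to 0.43). These counts depend on centring. Without it, 18 genes in 2n and 21 in 4n were lower, and the median gene itself was lower in CPM at P5 (-0.45 and -0.52). Without the CMs that held markers of other cell types, 8 genes were lower in 4n. The share of all genes lower under these settings is not given here to set beside these counts.

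The 4n over 2n ratio was set side by side at E16.5 and P5, which share no library. This was done after the levels had been seen. The median difference of the log2 ratios over the 40 genes was 0.04, against 0.01 over 10234 genes, and 22 of the 40 were above 0. Knstrn was the only gene whose ratio was at least 2-fold larger at P5 (a difference of 1.55, 1.28 to 1.82), and Kif15 the only one at least 2-fold smaller (-1.24, -1.94 to -0.54), against 0.508% and 3.84% of all genes. For 10 genes the interval of the difference lay above 0 (15.8% of all genes) and for 8 below 0 (14.7%). Those above 0 were Knstrn, Cenpa (0.85, 0.72 to 0.98), Nek2, Cenpw, Cenpm, Hmmr, Cdca8, Birc5, Cdc20 and Spc24. Those below 0 were Kif15, Kif18a, Nusap1 (-0.72, -1.02 to -0.42), Ttk, Kif11, Tpx2, Cenpk and Bub3. No kinesin was in the first group, and 3 of the 7 were in the second. For Knstrn the larger ratio at P5 came with a 2n level of 9.32 CPM at P5 against 36.5 at E16.5, while the 4n levels were 89.8 and 122 CPM. In contrast, the 4n level of Kif15 was 4.24 CPM at P5 against 12.5 at E16.5, and its 2n level 2.62 against 3.21. The exons of Knstrn overlap those of an antisense gene on the opposite strand. Of the 40 genes, 13 overlap an opposite-strand gene that is in the count tables and 0 a same-strand gene in them, and the chemistry keeps the strand.

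**Figure D4:**
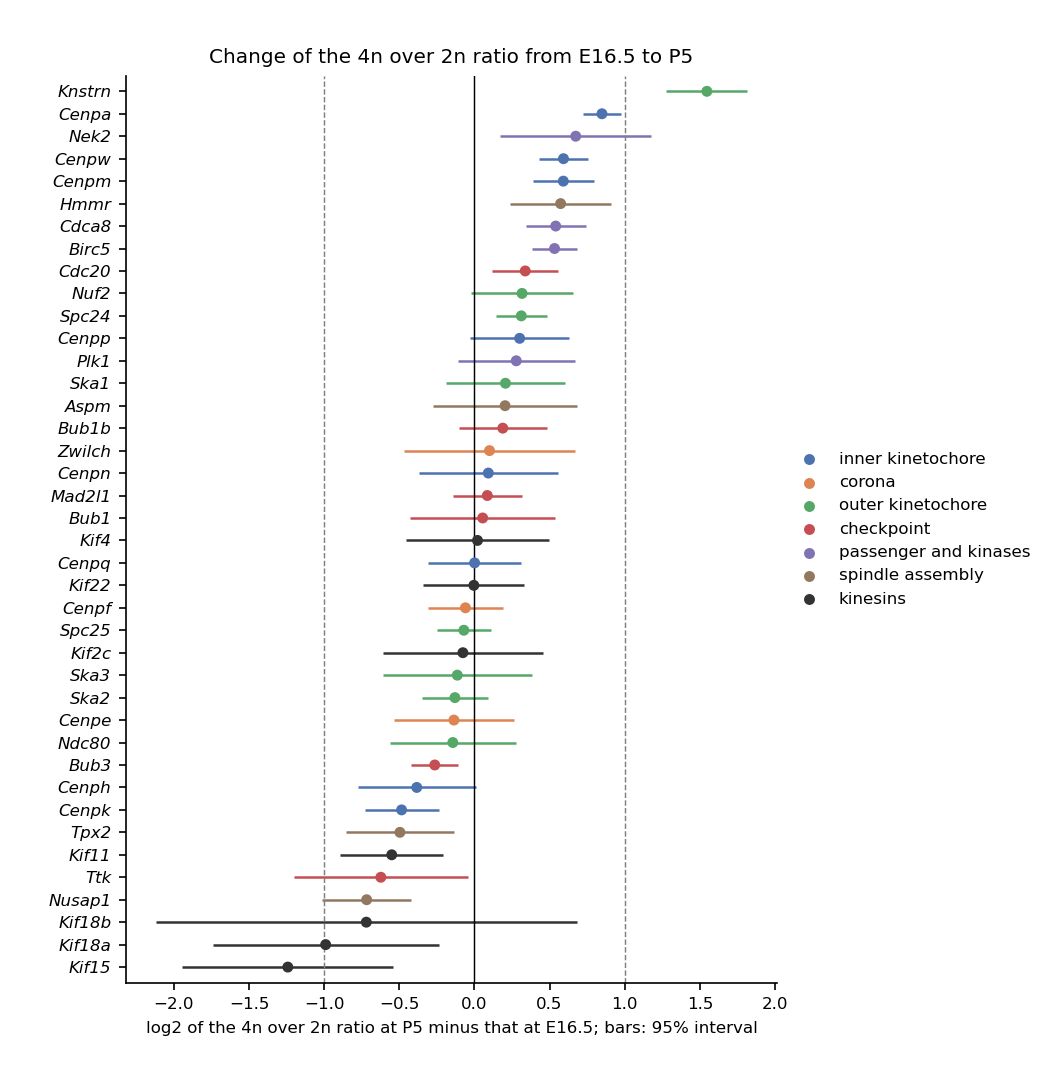
Difference of the log2 ratio of 4n over 2n CMs between P5 and E16.5 (x axis) for each of the 40 genes (y axis, ordered by value and coloured by role), with bars for the 95% interval from the 4 UMI counts and dashed lines at 2-fold. Knstrn stands apart at 1.55, and Kif15 and Kif18a lie at the other end.

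Levels over a library mix how many CMs express the genes and how much each holds. In bulk sums, fewer such cells and less RNA per cell cannot be told apart. To describe cells at equal depth, each CM with at least 1000 UMIs was thinned to 1000 UMIs. This left out 163, 700 and 20 CMs of the 2n libraries of E16.5, P1 and P5 and 23, 0 and 0 of the 4n libraries. A CM was called marker-positive with at least 2 UMIs of 20 mitotic markers that are not among the 40 genes, such as Mki67, Top2a and Ccnb1, and marker-free with 0. At E16.5, 14.7% (13.8 to 15.7) of 2n and 48.8% (47.4 to 50.3) of 4n CMs were marker-positive. At P1 the shares were 1.93% in 2n and 7.60% in 4n, and at P5 6.15% in 2n and 31.3% in 4n. The order of the shares thus matched that of the summed levels. The shares depend on depth and on the cells it leaves. At 2000 UMIs per CM they were 26.0%, 4.18% and 10.4% in 2n CMs at the 3 ages, with 2244, 4133 and 446 CMs left out. The class is a range on a scale, since between 298 (P1-2n) and 808 (E16.5-2n) CMs had 1 marker UMI and between 54 and 357 had just 2.

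Marker-positive CMs held most of the UMIs of the 40 genes in the 4n libraries, 88.1% (E16.5), 61.1% (P1) and 79.6% (P5). In the 2n libraries they held 53.8%, 23.2% and 33.8%. These 2n shares depend on the threshold, and were 71.9%, 35.5% and 50.4% at 2000 UMIs per CM and 39.8%, 16.3% and 24.9% with at least 3 marker UMIs. Per 1000 UMIs, a marker-positive CM held on average 3.88 (2n) and 6.48 (4n) UMIs of the 40 genes at E16.5, 3.31 (2n) and 5.11 (4n) at P1, and 2.80 (2n) and 5.47 (4n) at P5. A marker-free CM held 0.432, 0.597, 0.196, 0.232, 0.291 and 0.440 in the 6 libraries. The level within marker-positive CMs was higher in 4n than in 2n at each age. At P1 the level within them lay far closer to E16.5 than the library sums did. These CMs were selected by UMIs of other mitotic genes, and the selection itself can hold this level up. The level therefore cannot tell fewer such cells from less RNA per cell. At E16.5, 314 of 815 marker-positive CMs in 2n and 357 of 2372 in 4n had just 2 marker UMIs. At P1 these were 54 of 128 and 91 of 361, and at P5 121 of 270 and 228 of 1142. Marker-positive CMs thus lay nearer the threshold in 2n, and the part of this in the difference between ploidies was not tested. Of the marker-positive CMs, 85.2% (P5-2n) to 97.1% (P5-4n) held at least 1 UMI of the 40 genes, against 16.8% (P1-2n) to 39.7% (E16.5-4n) of marker-free CMs at the same depth. At least 3 of the 40 genes were detected in 12.8%, 1.64% and 4.89% of 2n CMs at E16.5, P1 and P5, and in 45.0%, 6.30% and 28.7% of 4n CMs. Before thinning, these shares were 25.8%, 4.21% and 19.4% of 2n CMs, and 59.0%, 16.7% and 49.5% of 4n CMs.

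**Figure D5:**
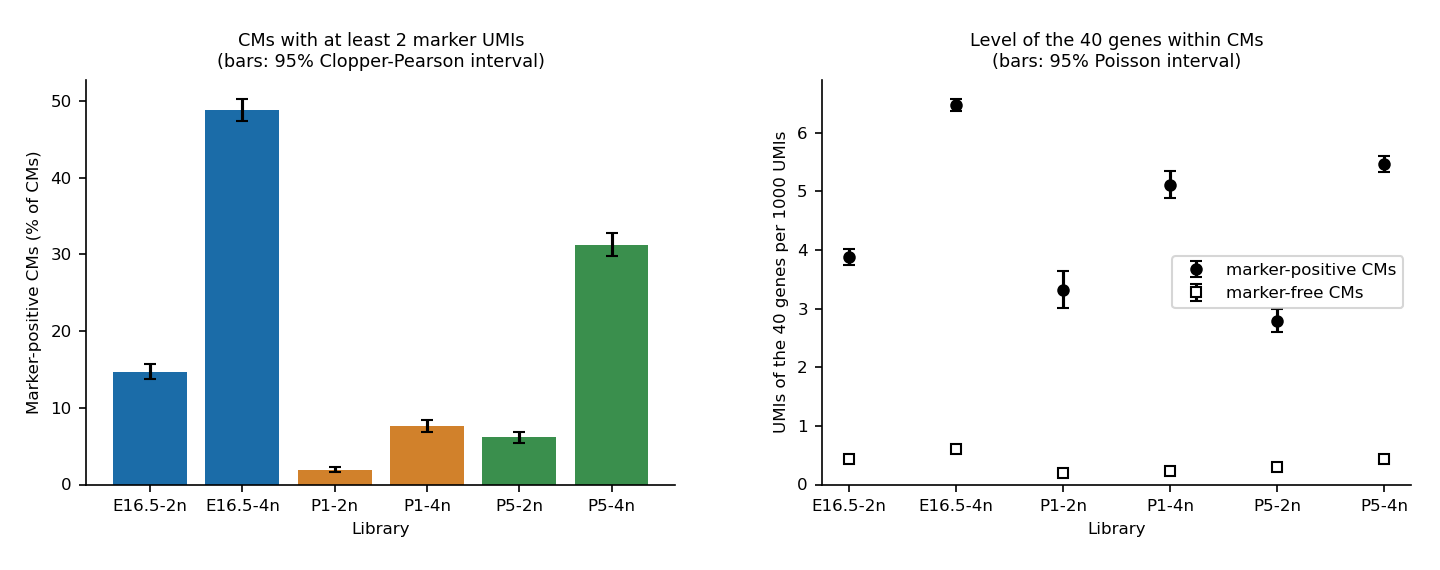
Left, share of marker-positive CMs in each library after thinning to 1000 UMIs (y axis, % of CMs). Right, UMIs of the 40 genes per 1000 UMIs in marker-positive (filled) and marker-free (open) CMs of each library; bars are 95% intervals of counting error. The share spans 1.93% to 48.8% between libraries, and the level within marker-positive CMs spans 2.80 to 6.48. The selection of these CMs by mitotic markers can itself hold that level up.

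The genes differed in how far they were limited to marker-positive CMs. In E16.5-4n these cells held 95.5% of the thinned UMIs of Plk1 and 92.2% of those of Cdc20, but 77.9% of those of Bub3, 75.4% of those of Ska2 and 67.3% of those of Cenpq. In P5-4n the shares were 89.9% for Cdc20, 73.5% for Cenpa, 65.5% for Bub3 and 64.7% for Ska2. In P5-2n they were only 13.0% for Bub3, 13.2% for Ska2 and 21.4% for Cenpa. In marker-free CMs, Bub3 had 66.2 CPM (2n) and 53.6 CPM (4n) at E16.5, and 51.5 and 41.9 CPM at P5. Cdc20 in the same cells had 8.69 and 23.2 CPM at E16.5, and 4.02 and 8.88 CPM at P5. A CM with 0 marker UMIs of 1000 may still hold marker RNA, since the marker-free share of E16.5-2n was 70.7% at 1000 and 57.7% at 2000 UMIs. Free RNA can also add UMIs to these cells, and its part was not tested.

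Within marker-positive CMs the genes were compared once more, as ratios of their share of UMIs and without centring, where at least 50 UMIs were present. For 4n over 2n the median log2 ratio was 0.67 over 39 genes at E16.5 and 0.97 over 32 genes at P5, and 9 and 15 of them were at least 2-fold higher (3.01% of 5773 and 3.70% of 2890 genes). Several of the genes at least 2-fold higher reached the minimum only through 4n, which nearly fixed their calls in advance. At P5 these were, in UMIs of 2n and 4n, Bub1 (4 and 48), Kif4 (4 and 76), Cenpe (5 and 125) and Cenpq (5 and 45). Kif2c (6 and 59), Aspm (7 and 87) and Kif22 (8 and 103) at P5 and Kif18a (6 and 50) at E16.5 were further cases. The counts and medians, above all those of P5, lean in part on such genes. Nusap1 had the largest ratio at E16.5, 1.93 (1.52 to 2.36), and 0.37 (-0.30 to 1.09) at P5. Knstrn had 0.62 (0.34 to 0.92) at E16.5 and 2.01 (1.26 to 2.87) at P5, with 15 and 255 UMIs at P5, and the intervals of both ages did not overlap. The same held for Cenpa, with 0.53 (0.36 to 0.71) and 1.90 (1.49 to 2.33), and in the opposite direction for Nusap1. How often the intervals of both ages lay apart was not counted, either for the other genes of the set or for all genes. Knstrn, Cenpa and Nusap1 had already differed between the ages in the sums over whole libraries. Those sums include the UMIs used here, so the ratios within marker-positive CMs are no independent test of that difference. For P5-4n over E16.5-4n the median over 39 genes was -0.35, near the median of all 5863 genes (-0.33), and 1 gene, Nusap1 (-1.24, -1.53 to -0.95), was at least 2-fold lower against 14.5% of all genes. Cenpa (0.24, 0.12 to 0.37), Ska2 (0.40, 0.07 to 0.72) and Kif4 (0.48, 0.04 to 0.91) lay above 0. These 3 were the only genes with an interval above 0, and 15 genes had an interval below 0. The median of all genes lay below 0 as well, and the share of all genes with such intervals was not counted. For P5-2n over E16.5-2n the median over 24 genes was -0.53, against -0.35 for all 2687 genes. Of the intervals, 9 lay below 0 and 0 above, again without a count over all genes. At least 2-fold lower were 5 of the 24 genes, not far from the 16.6% of all genes. They were Cenpq (-1.58, -3.27 to -0.25), Kif22 (-1.51, -2.78 to -0.46), Knstrn (-1.43), Cenpa (-1.12) and Cdca8 (-1.10). Cenpq (45 UMIs in E16.5-2n and 5 in P5-2n), Kif22 (69 and 8) and Knstrn (122 and 15) reached the minimum of 50 only through E16.5-2n. Little can be read from their ratios.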

How the data were processed

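Raw UMI counts per gene and cell of the 6 libraries were used as the authors deposited them. Per the labels and the study's methods, libraries were made with 10x Chromium 3′ chemistry and counted by the authors with Cell Ranger. The submitters' processing notes name STAR, Seurat 2.3.0 and the build GRCm38 (mm10). A deposited table of the authors' comparison between E16.5-4n and P5-4n CMs in G2/M, with fold changes and p-values, and a list of background gene symbols were not used. Levels are CPM of UMIs summed over CMs with at least 1 UMI of each of 4 markers. Ratios carry exact binomial (Clopper-Pearson) intervals, sums Poisson intervals and differences of ratios a normal interval from 4 counts, all at 95%. No level of the 40 genes was 0. The comparison recovered 4-fold changes in simulated Poisson counts. Changes near the 2-fold threshold and spread between animals were not simulated. No doublet caller was used, and doublets were not removed. Thinning drew UMIs at random without replacement with a fixed seed. Positions are from the GENCODE M21 annotation (GRCm38), promoter windows from RefSeq.

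All 40 genes are accounted for, and those with at least 200 UMIs over the 6 libraries (39) are described library by library. The 40 genes, the lists and the marker sets were chosen with earlier results of these data known. Other genes named with values are the extremes of the list of other pathway genes. Markers are named as parts of their sets, and Ptprc and Upk1b as the markers at 0. Python 3.11.15, numpy 2.4.6, scipy 1.17.1, pandas 2.3.3 and matplotlib 3.10.9 were used.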

Additional observations from a re-analysis of the deposited data

How the results depend on the processing

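The 9 comparisons between libraries were repeated without centring, with median-of-ratios size factors, without the 50 most abundant genes in the total, with means over cells, with 2 UMIs of each CM marker, without a CM filter, without CMs holding markers of other cell types, with a minimum of 20 or 100 UMIs, and, chosen after seeing the data, without CMs holding Alas2. Genes called higher in 4n ranged from 32 to 35 at E16.5, 24 to 30 at P1 and 33 to 34 at P5. Those called lower at P1 than at E16.5 ranged from 33 to 37 (2n) and 39 to 40 (4n), and those higher at P5 than at P1 from 24 to 33 (2n) and 36 to 38 (4n). For P5 against E16.5, the 4 genes called lower in each ploidy became 18 (2n) and 21 (4n) without centring, 7 and 8 without the 50 most abundant genes, and 8 (4n) without CMs holding markers of other cell types. The ratio difference between P5 and E16.5 was 2-fold for 2 to 3 genes, and lay between 1.52 and 1.74 for Knstrn. Of 3850 values of single genes under the alternatives, 315 moved beyond their interval. Of the values called higher or lower in the main setting, 0 changed direction. For genes within 2-fold, changes of direction were not counted. The 7 genes above their E16.5-4n level in P5-4n after centring lay below it without centring. The share of all genes called under each alternative is not given here. No paired analysis was possible because each condition has 1 library.

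In order of age with 2n before 4n, thinning to 2000 UMIs, which left out 2244, 2142, 4133, 998, 446 and 167 CMs, gave marker-positive shares of 26.0%, 61.2%, 4.18%, 11.7%, 10.4% and 39.3%, with 3.07, 5.76, 2.50, 4.17, 2.52 and 4.82 UMIs of the 40 genes per 1000 in these cells. A threshold of 3 marker UMIs gave shares of 9.05%, 41.5%, 1.11%, 5.69%, 3.39% and 25.0%, and levels of 4.67, 7.02, 4.01, 5.97, 3.74 and 5.98. Another random draw gave 5.32 in P5-4n. Without CMs holding markers of other cell types, 4n shares were 54.7% (E16.5) and 32.8% (P5) and the P5-2n share 5.22%, with levels of 6.83 (E16.5-4n), 5.94 (P1-4n) and 3.06 (P5-2n). Counts limit the rarest kinesins most.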
